A study of Mus musculus with 6 samples.

Results

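The genes described here are the mouse Wnt ligands, their receptors, and the secreted proteins and feedback genes that tune Wnt signalling. They were taken by symbol from the count table: every Wnt, Fzd, Sfrp, Dkk and Rspo gene followed by a number, plus Axin2, Apcdd1, Lrp5, Lrp6, Frzb and Wif1, which gave 47 of the 24421 gene symbols. Bulk RNA sequencing covered 6 cortex samples of C57BL/6 mice, all after MCAO (middle cerebral artery occlusion, a surgical model of ischaemic stroke). In 3 samples the treatment was green fluorescent protein (GFP), the control, and in 3 it was NeuroD1, a basic helix-loop-helix factor known for driving neuronal differentiation. The series title describes an intravenous gene therapy. No source used here gives the vector, its promoter, the interval since stroke, or the animals' age or sex. Nothing in the labels ties each sample to its own animal, so the p-values below reflect variation among these 6 samples, some of which may be technical. In bulk tissue, fewer cells of a type and less RNA per cell cannot be told apart.

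Wnt proteins are secreted lipid-modified ligands that bind Frizzled receptors, encoded by the Fzd genes. In the canonical branch the co-receptor Lrp5 or Lrp6 joins the complex, beta-catenin escapes degradation, and TCF and LEF factors switch on targets such as Axin2. In the brain, Wnt7a and Wnt7b made by neural cells act on endothelial cells to build and maintain the blood-brain barrier, and Apcdd1 and Lef1 are among the genes that mark the response there. Sfrp, Frzb and Wif1 proteins bind Wnts and Dkk1, Dkk2 and Dkk4 block Lrp5 and Lrp6, whereas R-spondins (Rspo) stabilise the receptors.

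The promoters of 2 genes the results turn on are shown first: Fzd7, the gene of this set with the largest difference among those with a p under 0.05, and Axin2, the textbook transcriptional target of the pathway. Each is the 250 bases before the RefSeq start site on GRCm38.p6, 5′ to 3′ on the gene's strand, which was chr1:59481897-59482146 (plus strand) for Fzd7 and chr11:108920099-108920348 (plus strand) for Axin2. Capitals mark a match to a TCF/LEF word (CTTTGAT or CTTTGAA or CTTTGTT or CTTTGTA, either strand) or to an E-box of the kind NeuroD1-family proteins bind (CAGATG or CAGCTG, either strand).
Fzd7: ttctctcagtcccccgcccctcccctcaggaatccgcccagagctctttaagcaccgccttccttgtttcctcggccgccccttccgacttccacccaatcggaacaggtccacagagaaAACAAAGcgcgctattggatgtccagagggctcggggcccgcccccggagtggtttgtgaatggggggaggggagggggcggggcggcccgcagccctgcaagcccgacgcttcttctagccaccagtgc
Axin2: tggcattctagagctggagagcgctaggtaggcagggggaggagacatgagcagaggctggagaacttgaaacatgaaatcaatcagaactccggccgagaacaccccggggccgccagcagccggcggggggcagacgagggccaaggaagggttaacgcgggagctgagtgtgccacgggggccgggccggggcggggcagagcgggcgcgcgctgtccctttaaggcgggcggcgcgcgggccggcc
The only match in these 2 windows was 1 TCF/LEF word on the minus strand of Fzd7, from 130 to 124 bases before the start. Such matches are frequent by letter composition: a TCF/LEF word stood in 4 of the 33 promoter windows available for 30 of these genes (12.1%) and in 14.8% of all 32851 windows of the same length. CAGATG stood in 2 of the 33 (Wnt16 and Wnt5b, 6.06%) against 14.4% of all, and CAGCTG in 3 (Frzb, Fzd10 and Wnt9a, 9.09%) against 13.001%. A match is a description of letters, and a window without one says only that these letters are not in it. Rspo1, Fzd1 and Wnt7a also had 0 matches in their windows.

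Libraries held 7753101 to 9698795 counts with GFP and 10843273 to 13440244 with NeuroD1. Levels are given as CPM, read counts scaled to library size after TMM normalisation for library composition, and 1 count was worth 0.0753 to 0.134 CPM. Neurod1, the delivered gene, stood at 6.48, 3.87 and 5.43 CPM in GFP replicates 1, 2 and 3 and at 48.5, 14.6 and 38.4 CPM in NeuroD1 replicates 1, 2 and 3, so every NeuroD1 library was above every GFP library and replicate 2 was the lowest of its group. The log2 fold change was 2.68 (SE 0.45, edgeR adjusted p = 0.136, DESeq2 adjusted p = 1.11e-05), and without NeuroD1 replicate 2 it was 3.04 (edgeR adjusted p = 0.0421). Reads of a delivered copy and of the mouse gene were not separated. The excitatory cortical markers Slc17a7 and Camk2a averaged 1036 ± 211.1 and 2581 ± 1167 CPM over the controls (SD, n = 3), so defining markers of the labelled tissue were present. NeuroD1 replicate 2 stood apart: it held the highest summed level of 9 fibroblast and leptomeningeal markers (6454 CPM, against 1628 to 3892 in the other libraries) and the lowest of the 7 excitatory markers (1809 CPM, against 2808 to 5423). GFP replicate 2 held 820.9 CPM of 8 choroid plexus markers, against 15.9 to 139.5 in the others. By chi-square per gene, NeuroD1 replicate 3 differed from GFP replicates 1, 2 and 3 by 29.1, 104.8 and 34.9. It differed from NeuroD1 replicates 1 and 2 by 38.1 and 126.3. NeuroD1 replicate 3 was thus nearer to GFP replicates 1 and 3 than to either other NeuroD1 library.

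Of the 47 genes, 37 had enough counts to be tested and 10 did not. No reads at all were counted for Wnt3a and Dkk1 in any library, and 3 counts, the floor used for an empty gene, correspond to 0.226 to 0.401 CPM per library. That floor covers counting error only. The other 8 untested genes were Wif1 (47 counts over all 6 libraries), Wnt11 (28), Wnt1 (23), Wnt9b (9), Wnt8b (6), Rspo4 (5), Dkk4 (2) and Wnt8a (2). Dkk1, the best studied Lrp5 and Lrp6 blocker, was therefore under the detection limit of both groups. Wif1, a secreted Wnt trap, was low but above that floor in every library, at 0.543 to 1.07 CPM.

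To compare levels between genes, CPM was divided by exon length (GENCODE M21, GRCm38). Dkk3 led with a mean of 63.4 CPM per kilobase over the 6 libraries. It is a Dickkopf relative abundant in neurons that, unlike Dkk1, is not an established Lrp blocker. Fzd7 (9.56 CPM per kilobase), Wnt7b (8.09), Lrp5 (7.72), Axin2 (6.05), Lrp6 (6.02) and Fzd2 (5.59) followed. The place of Fzd7 came from the NeuroD1 libraries: its mean was 4.59 with GFP and 14.5 with NeuroD1. With GFP it stood below Dkk3 (63.5), Wnt7b (8.69), Axin2 (7.48), Lrp5 (5.57) and Fzd6 (5.55). Apcdd1 (5.37), Sfrp1 (5.35), Fzd2 (5.17) and Wnt4 (4.98) were also above Fzd7 with GFP. Wnt7b was the ligand with the highest mean, ahead of Wnt4 (4.91), Wnt7a (3.15) and Wnt9a (3.04), while Wnt16 was the lowest tested ligand (0.206). Neighbours such as Axin2 and Lrp6 did not differ beyond their spread: Axin2 ran from 4.25 to 10.02 and Lrp6 from 3.65 to 9.32 CPM per kilobase over the 6 libraries.

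**Figure D1:**
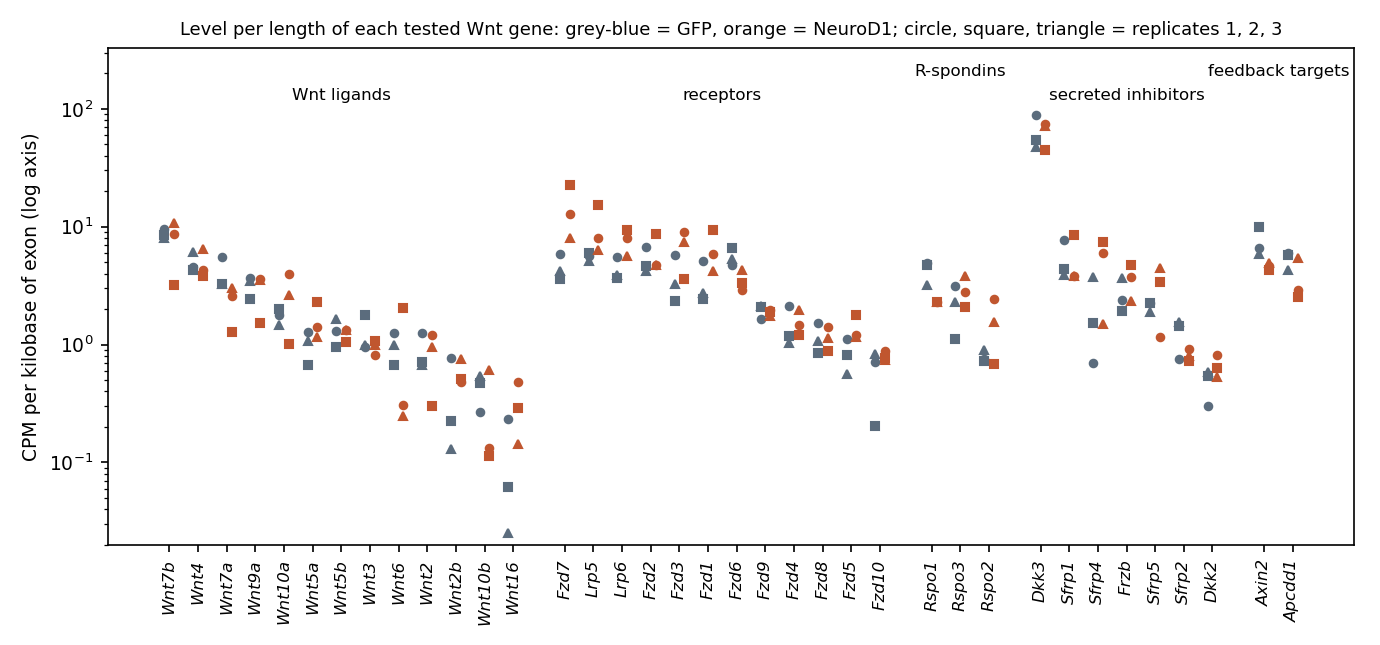
Levels of the 37 tested Wnt genes in CPM per kilobase of exon (log axis), grouped by role and ordered by mean, with 3 GFP and 3 NeuroD1 libraries as separate points. Dkk3 sits far above the rest, and the NeuroD1 points of Fzd7, Lrp5 and Lrp6 lie above their GFP points.

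The comparison of NeuroD1 with GFP asks how the treatment alters gene expression in the injured cortex. Across the 47 genes the receptors leaned upwards and the feedback target Axin2 was lower, but no gene passed the adjusted threshold. By edgeR's quasi-likelihood test, 0 of 37 genes had a Benjamini-Hochberg adjusted p under 0.05, as did 0% of all 14852 tested genes. At an unadjusted p under 0.05, 7 of 37 (18.9%) were called against 24.0% of all genes, with 4 higher (background 12.5%) and 3 lower (background 11.5%). The share among the Wnt genes was thus close to and slightly under the background, and does not set them apart. By limma-voom 0 of the 37 passed after adjustment and 7 had an unadjusted p under 0.05. By DESeq2 1 gene, Fzd7, passed after adjustment, and DESeq2 called 8.63% of the genes to which it gave an adjusted p. Without the edgeR count filter, DESeq2 gave an unadjusted p to 45 of the 47 genes. Of these 45, 10 had an unadjusted p under 0.05, against 21.2% of all genes in that fit. Groups did not overlap in 8 genes (21.6%), 4 higher and 4 lower, against 29.6% of all genes (14.2% higher, 15.3% lower). The median log2 fold change was 0.11 over the 37 genes and 0.02 over all tested genes. The count at an unadjusted p under 0.05 fell to 2 (Fzd7 and Rspo1) without GFP replicate 2, where the background was 11.9%, and to 4 without GFP replicate 3 (background 12.5%), and was 12 without NeuroD1 replicate 3 (background 28.99%). Without NeuroD1 replicate 2 it was 9 (background 24.1%), of which 5 were among the 7.

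**Figure D2:**
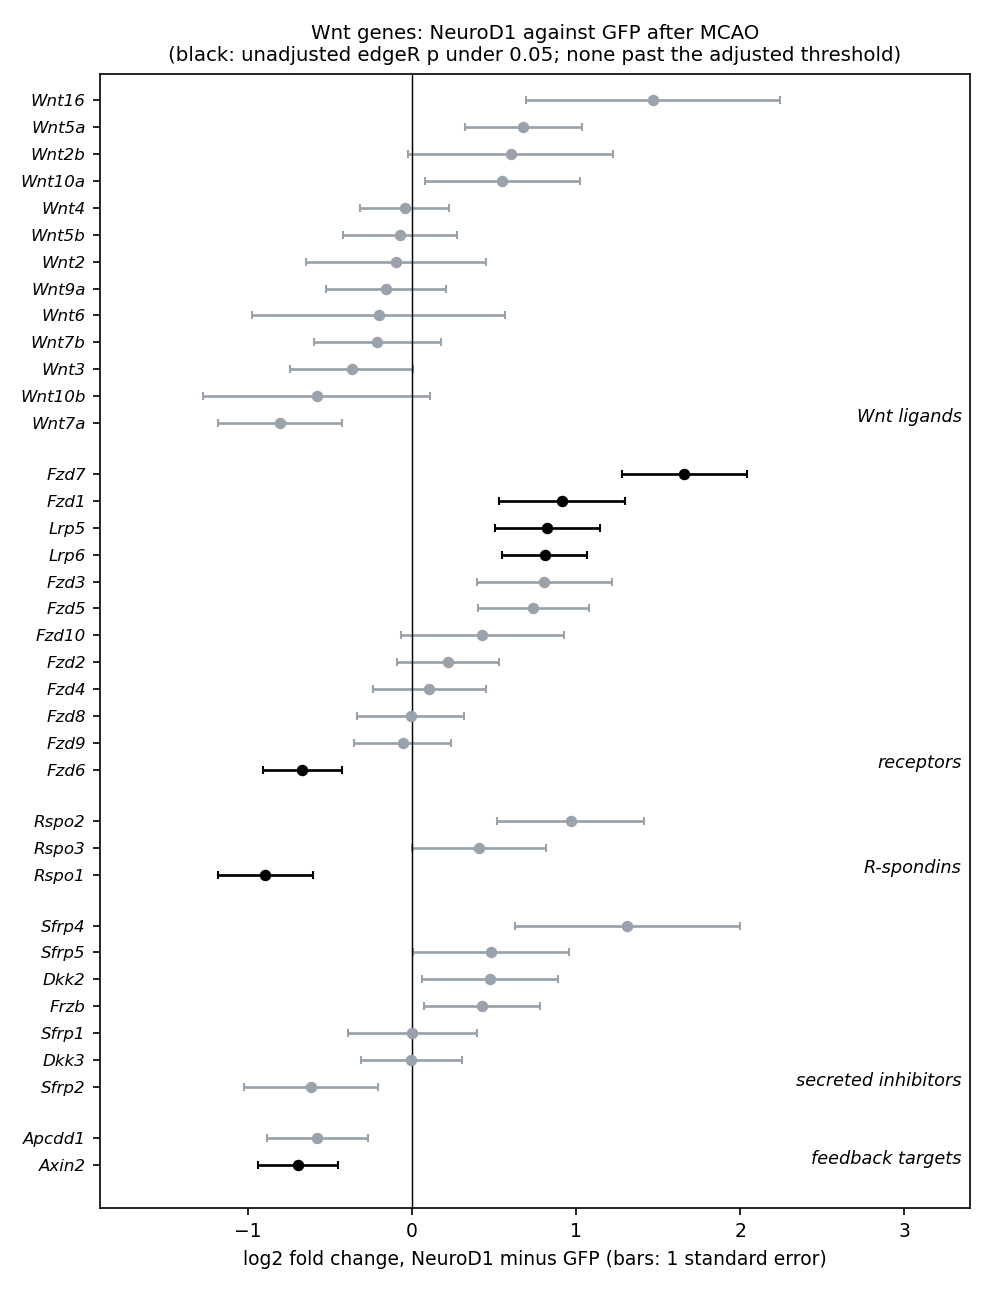
Log2 fold change of NeuroD1 against GFP (x axis) for each tested Wnt gene, with bars of 1 standard error, ordered by role. The 7 black points have an unadjusted edgeR p under 0.05: Fzd7, Fzd1, Lrp5 and Lrp6 lie to the right of 0, and Fzd6, Rspo1 and Axin2 to the left.

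**Figure D3:**
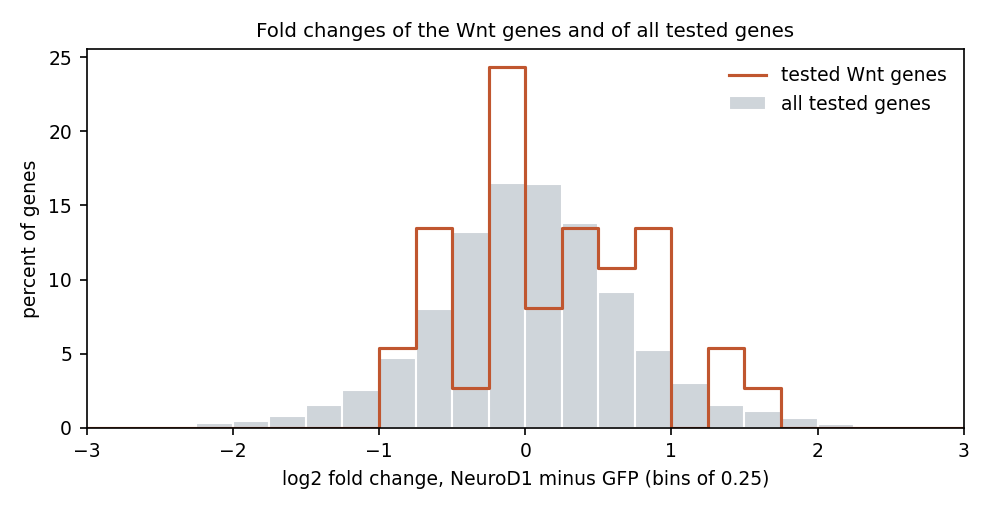
Percent of genes (y axis) in bins of log2 fold change of 0.25 for all 14852 tested genes (bars) and the 37 Wnt genes (line). The Wnt genes lie between -0.89 and 1.66, inside the wider range of all genes. Their medians are 0.11 and 0.02, and their upper quartiles 0.68 and 0.43.

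Among the receptors, 4 of 12 were higher and 1 lower at an unadjusted p under 0.05, and 7 were not past it, against 12.5% and 11.5% of all genes. The higher count was 1 when GFP replicate 2 or GFP replicate 3 was left out, where 6.53% and 6.13% of all genes were higher. Their median log2 fold change was 0.58, and 0.35 without GFP replicate 2. With NeuroD1 9 of 12 had higher fitted levels, against 51.7% of all genes. The summed receptor level was 337.4, 237.8 and 241.3 CPM in the GFP libraries and 452.3, 543.2 and 360.0 CPM in the NeuroD1 libraries, so the groups did not overlap. Fzd7 (chromosome 1, 59482424 to 59486955, plus strand), a Frizzled receptor known from stem and progenitor cells, stood at 26.8, 16.4 and 19.1 CPM with GFP and at 58.6, 102.6 and 36.4 CPM with NeuroD1. Every NeuroD1 library was above every GFP library, and NeuroD1 replicate 2 was the highest. The difference was 3.16-fold, a log2 fold change of 1.66 (SE 0.38, 95% interval 0.79 to 2.53), with an edgeR unadjusted p of 0.00216, an edgeR adjusted p of 0.136 and a DESeq2 adjusted p of 0.00318. Without NeuroD1 replicate 2 the log2 fold change was 1.195, with an unadjusted edgeR p of 0.00296, and with each other library left out it lay between 1.52 and 1.96.

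Both canonical co-receptors stood higher with NeuroD1. Lrp6 (chromosome 6, 134446476 to 134566965) was counted at 75.8, 49.95 and 53.7 CPM with GFP and at 110.2, 127.4 and 77.0 CPM with NeuroD1. The groups did not overlap, though GFP replicate 1 and NeuroD1 replicate 3 nearly met. The log2 fold change of Lrp6 was 0.81 (SE 0.26, edgeR unadjusted p = 0.0137, adjusted p = 0.145), and its unadjusted p was 0.0558 when GFP replicate 2 and 0.0568 when GFP replicate 3 was left out. Its relative Lrp5 (chromosome 19, 3584828 to 3686564), which is also needed for retinal and brain vessel development, had 54.7, 58.5 and 49.4 CPM with GFP and 78.6, 147.6 and 62.1 CPM with NeuroD1. For Lrp5 the high value came from NeuroD1 replicate 2 and the lowest NeuroD1 library was just above the highest GFP library. Its log2 fold change was 0.83 (SE 0.32, edgeR unadjusted p = 0.0307, adjusted p = 0.177), and 0.38 (unadjusted p = 0.0851) without NeuroD1 replicate 2. With any 1 GFP library left out, the edgeR unadjusted p of Lrp5 lay between 0.0543 and 0.0903.

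Fzd1, a receptor close in sequence to Fzd7, had 21.6, 10.3 and 11.5 CPM with GFP and 24.7, 39.7 and 17.7 CPM with NeuroD1. Its groups overlapped, since GFP replicate 1 exceeded NeuroD1 replicate 3. The log2 fold change was 0.91 (SE 0.38, edgeR unadjusted p = 0.0428, adjusted p = 0.196). It was 0.55 (unadjusted p = 0.151) without NeuroD1 replicate 2, and its unadjusted p was also above 0.05 when GFP replicate 2 (0.128), GFP replicate 3 (0.127) or NeuroD1 replicate 1 (0.0586) was left out, and with upper quartile scaling. Fzd3, a receptor of the planar cell polarity branch that guides axons, had 74.2, 29.9 and 41.6 CPM with GFP and 115.2, 46.0 and 94.1 CPM with NeuroD1. Replicate 1 was the highest and replicate 2 the lowest of both groups, which overlapped (log2 fold change 0.81, SE 0.41, edgeR unadjusted p = 0.0847). The value was 1.23 (unadjusted p = 0.0206) without GFP replicate 1 and 1.11 (unadjusted p = 0.0123) without NeuroD1 replicate 2. Fzd5, singled out after its values were seen because its groups did not overlap, averaged 5.74 ± 1.90 CPM in the GFP libraries and 9.61 ± 2.41 CPM in the NeuroD1 libraries (SD, n = 3 each, edgeR unadjusted p = 0.0592, and 0.0251 without GFP replicate 1).

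Fzd6 (chromosome 15, 39006034 to 39038188), a polarity receptor that restrains canonical signalling in some cells, went the other way. It was counted at 22.8, 31.8 and 25.6 CPM with GFP and at 13.9, 16.0 and 20.6 CPM with NeuroD1. All 3 NeuroD1 libraries were below all 3 GFP libraries. The log2 fold change was -0.67 (SE 0.24, 95% interval -1.22 to -0.12, edgeR unadjusted p = 0.0232, adjusted p = 0.165). Its unadjusted p was 0.0918 when GFP replicate 2, 0.0532 when GFP replicate 3 and 0.0911 when NeuroD1 replicate 1 was left out. It is annotated with an opposite-strand exon overlap to Gm26704, and without a stated strand setting reads of the pair cannot be told apart. The remaining receptors gave values with overlapping groups: Fzd2, a relative of Fzd1 and Fzd7, averaged 18.9 ± 4.89 and 22.1 ± 8.13 CPM with GFP and NeuroD1. Fzd4, the receptor of Norrin in brain and retinal vessels, averaged 9.67 ± 3.93 and 10.4 ± 2.62 CPM (log2 fold change 0.11, 95% interval -0.68 to 0.89). Fzd8, Fzd9 and Fzd10 had log2 fold changes of -0.01, -0.06 and 0.43.

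**Figure D4:**
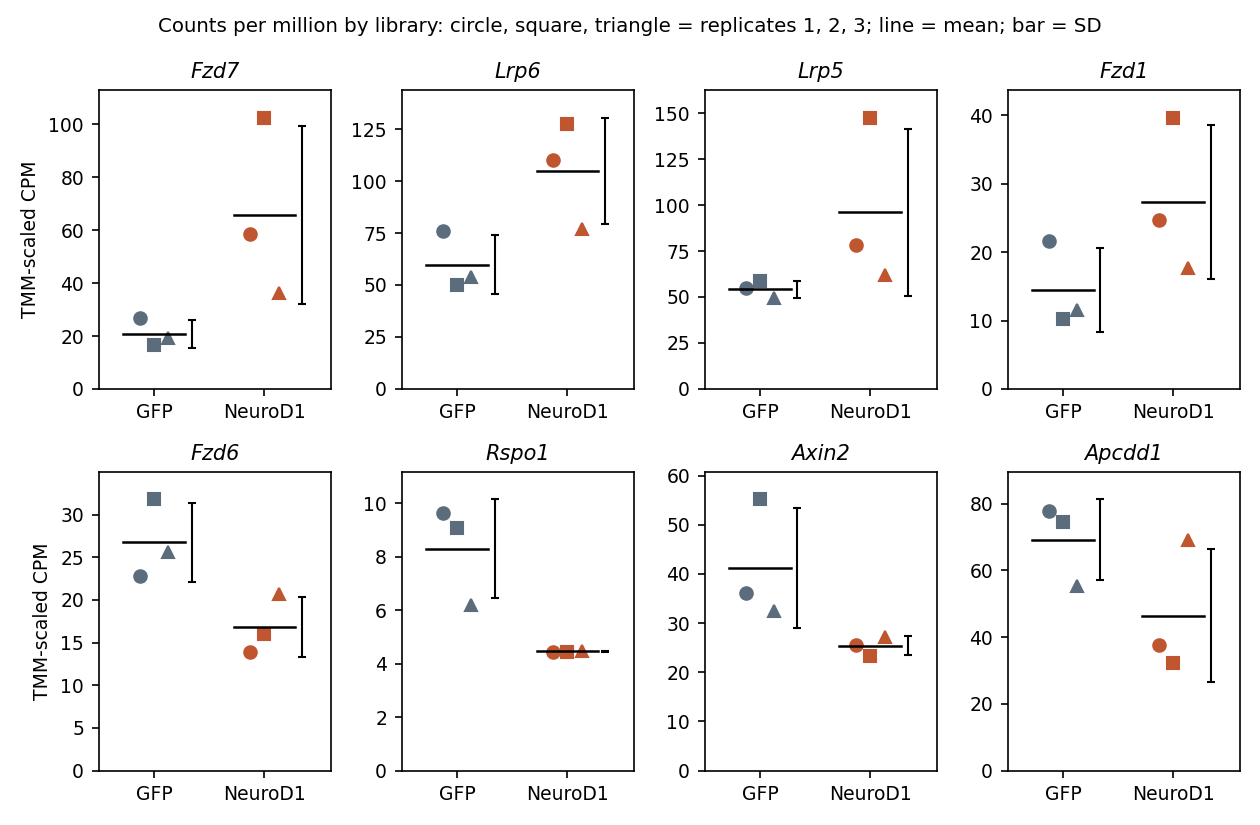
CPM by library (y axis, from 0) for the 7 Wnt genes with an unadjusted edgeR p under 0.05 and Apcdd1, with replicates as separate symbols, a line at the mean and a bar for the SD. NeuroD1 replicate 2 (square) is the highest point for Fzd7, Lrp6, Lrp5 and Fzd1, and the 3 NeuroD1 points of Rspo1 nearly coincide.

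Among the 19 ligands, 13 were tested and 0 had an unadjusted p under 0.05, against 24.0% of all genes. Their median log2 fold change was -0.10. With 1 library left out, 0 to 2 ligands were higher and 0 to 2 lower at that threshold. Without GFP replicate 1, Wnt16 and Wnt2b were higher, as were 14.2% of all genes. Without NeuroD1 replicate 2, Wnt10a was higher and Wnt6 lower (all genes 12.2% higher, 11.9% lower). Without NeuroD1 replicate 3, Wnt5a was higher and Wnt7a and Wnt10b lower (all genes 15.3% higher, 13.6% lower). Wnt7a (chromosome 6, 91363981 to 91411363), singled out after its values were seen because its groups did not overlap and because of its barrier role, had 17.5, 10.3 and 10.3 CPM with GFP and 8.21, 4.06 and 9.51 CPM with NeuroD1. Each NeuroD1 library was below each GFP library, by a narrow margin for replicate 3. Its log2 fold change was -0.81 (SE 0.38, 95% interval -1.67 to 0.06, edgeR unadjusted p = 0.0641, adjusted p = 0.232), and its unadjusted p was under 0.05 with upper quartile scaling. Wnt7b, which acts with Wnt7a on brain endothelium, had 47.0, 41.7 and 39.0 CPM with GFP and 42.2, 15.6 and 52.4 CPM with NeuroD1. The 1 low value was NeuroD1 replicate 2, and without that library the log2 fold change of -0.21 (SE 0.39) became 0.16.

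The other ligands gave overlapping groups. Wnt4, a ligand of both canonical and polarity signalling, had 18.9, 18.0 and 25.8 CPM with GFP and 18.0, 15.9 and 27.0 CPM with NeuroD1 (95% interval of the log2 fold change -0.67 to 0.58). Replicate 3 was the highest in each group. Wnt5a, the prototype non-canonical ligand, had 9.92, 5.21 and 8.37 CPM with GFP and 10.9, 17.9 and 8.98 CPM with NeuroD1 (log2 fold change 0.68, SE 0.36, edgeR unadjusted p = 0.0921). Wnt9a averaged 10.7 ± 2.21 and 9.56 ± 3.92 CPM with GFP and NeuroD1 (SD, n = 3 each). Wnt16 rested on 10, 2 and 1 counts with GFP and 28, 13 and 7 with NeuroD1, and its log2 fold change of 1.47 had an SE of 0.77. Wnt6 was uneven within the NeuroD1 group, at 4.45 CPM in replicate 2 against 0.678 and 0.539 CPM in replicates 1 and 3, while GFP libraries held 1.47 to 2.73 CPM. The log2 fold changes of Wnt2, Wnt2b, Wnt3, Wnt5b, Wnt10a and Wnt10b lay between -0.58 (Wnt10b) and 0.60 (Wnt2b), each with an unadjusted p above 0.05.

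Rspo1 (chromosome 4, 124986430 to 125009099), an R-spondin that potentiates canonical Wnt signalling by sparing the receptors from turnover, was lower with NeuroD1. It was counted at 9.62, 9.08 and 6.19 CPM with GFP and at 4.44, 4.45 and 4.49 CPM with NeuroD1, so the groups did not overlap. The log2 fold change was -0.89 (SE 0.29, 95% interval -1.56 to -0.23, edgeR unadjusted p = 0.0141, adjusted p = 0.145). It lay between -1.07 and -0.79 with 1 library left out, with an unadjusted p from 0.013 to 0.0481 in each of those 6 fits. Rspo2 and Rspo3, which act through the same receptors, did not share its direction: Rspo2 had 3.74 to 4.56 CPM with GFP and 12.4, 3.48 and 7.90 CPM with NeuroD1 (log2 fold change 0.97, SE 0.45, edgeR unadjusted p = 0.0616). Rspo2 rested on single libraries: the log2 fold change was 0.50 (unadjusted p = 0.298) without NeuroD1 replicate 1 and 1.33 (unadjusted p = 0.00296) without NeuroD1 replicate 2, and the DESeq2 unadjusted p was 0.0446. Rspo3 had 9.62, 3.47 and 7.06 CPM with GFP and 8.59, 6.48 and 11.8 CPM with NeuroD1 (log2 fold change 0.41, SE 0.41). Whether Rspo1 differs from Rspo2 or Rspo3 in its response was not tested.

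Of the 10 secreted inhibitors 7 were tested and 0 had an unadjusted p under 0.05, against 24.0% of all genes. Their log2 fold changes ran from -0.62 (Sfrp2) to 1.31 (Sfrp4). Dkk3 had 296.0, 183.5 and 160.2 CPM with GFP and 249.3, 150.5 and 238.7 CPM with NeuroD1, a log2 fold change of -0.0029 (95% interval -0.71 to 0.71). Sfrp1, a secreted Frizzled-related Wnt binder, ranged from 17.1 to 33.9 CPM with GFP and from 16.7 to 37.2 CPM with NeuroD1 (95% interval of the log2 fold change -0.90 to 0.91). The Sfrp1 interval still allows a difference of the size fitted for Lrp5 and Lrp6. Sfrp4, a family member found in connective tissue, was scattered: 2.94, 6.41 and 15.6 CPM with GFP and 24.9, 31.1 and 6.19 CPM with NeuroD1, with an SE of 0.69 on a log2 fold change of 1.31. That value was 2.16 (edgeR unadjusted p = 0.0166) without GFP replicate 3, 1.75 (unadjusted p = 0.0203) without NeuroD1 replicate 3 and 0.87 without GFP replicate 1. Sfrp5, a relative of Sfrp1, had an unadjusted p under 0.05 only without NeuroD1 replicate 1 (log2 fold change 0.88, against 0.48). Frzb, another Wnt binder, averaged 8.64 ± 2.95 and 11.6 ± 3.86 CPM.

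Both feedback targets had lower mean levels with NeuroD1. Axin2 (chromosome 11, 108920349 to 108950783), a scaffold of the beta-catenin destruction complex, had 36.1, 55.2 and 32.4 CPM with GFP and 25.6, 23.4 and 27.2 CPM with NeuroD1. The groups did not overlap, and GFP replicate 2 was the highest. An exon of Axin2 overlaps Gm11670 on the opposite strand, with the same limit as for Fzd6. The log2 fold change was -0.70 (SE 0.24, edgeR unadjusted p = 0.0202, adjusted p = 0.158). It was -0.43 (unadjusted p = 0.10) without GFP replicate 2, and the other left-out libraries gave -0.84 to -0.63. Apcdd1, a membrane inhibitor of Wnt signalling made by brain endothelial cells, had 77.8, 74.4 and 55.4 CPM with GFP and 37.7, 32.3 and 69.2 CPM with NeuroD1. NeuroD1 replicate 3 lay within the GFP range, and the log2 fold change of -0.58 (SE 0.31) had an edgeR unadjusted p of 0.0961. Without NeuroD1 replicate 3 it was -0.98 (unadjusted p = 0.00465), and without NeuroD1 replicate 2 it was -0.37.

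The levels of cell type markers moved along with several of these genes, and their part in the results was not tested. The summed level of 10 endothelial markers was 691.1, 1045 and 679.4 CPM with GFP and 336.1, 361.6 and 577.0 CPM with NeuroD1. Of the 10, 7 were lower at an unadjusted p under 0.05. At that threshold 11.5% of all genes were lower and 12.5% higher, and these shares stand beside every marker count below. The order of libraries matched only in part: the highest endothelial sum with GFP was in replicate 2, which had the highest Axin2, while Apcdd1 was highest in replicate 1. With NeuroD1, replicate 3 had the highest sum, Axin2 and Apcdd1, while the lowest sum was in replicate 1 and the lowest Axin2 and Apcdd1 in replicate 2. The 9 fibroblast and leptomeningeal markers summed to 1628 to 2288 CPM with GFP and 1907 to 6454 CPM with NeuroD1, with 7 higher and 1 lower, and NeuroD1 replicate 2 was the highest for these as it was for Fzd7, Lrp5, Lrp6 and Fzd1. Of the 9 microglia and macrophage markers 5 were higher and 0 lower, with sums of 1601 to 2057 and 2022 to 2725 CPM. The 7 astrocyte markers summed to 8273 to 14134 and 5082 to 9452 CPM, with 1 lower and 0 higher. The 8 pericyte and smooth muscle markers summed to 288.1 to 442.1 and 185.4 to 390.6 CPM, with 5 lower and 0 higher. The 7 oligodendrocyte lineage markers summed to 9673, 19044 and 11197 CPM with GFP and to 6179, 7572 and 8495 CPM with NeuroD1, without overlap between the groups, with 2 lower and 1 higher. No listed marker was at 0 in all libraries.

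The other genes of the pathway come from a list of 68 symbols covering Wnt secretion, further receptors, the destruction complex, TCF/LEF factors and the polarity branch, all in the table and 63 tested. By edgeR 0 passed after adjustment. At an unadjusted p under 0.05, 8 were higher and 10 lower, together 28.6% against 24.0% of all genes. After adjustment DESeq2 called 4 higher and 7 lower of the 65 listed genes given an adjusted p. Over all 15703 genes given one it called 764 higher and 591 lower, together 8.63%. In edgeR at an unadjusted p under 0.05, the higher count was 14 when GFP replicate 1 was left out and 3 for GFP replicate 2. It was 2 for GFP replicate 3 and 4 for NeuroD1 replicate 1. In that order, 14.2%, 6.53%, 6.13% and 7.79% of all genes were higher. The lower counts in these fits were 10, 8, 7 and 8, where 13.7%, 5.40%, 6.40% and 5.56% of all genes were lower. Groups did not overlap in 23 of the 63 (36.5%, against 29.6% of all genes). Of the 8 genes with the smallest p, 7 were lower with NeuroD1, and these 8 are described next.

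Lef1, a transcription factor that carries the canonical signal to DNA, had 21.4, 24.7 and 18.6 CPM with GFP and 6.48, 11.2 and 11.8 CPM with NeuroD1, a log2 fold change of -1.14 (SE 0.28). Nkd1, an inhibitor of Dishevelled that is itself induced by Wnt signals, had 27.7, 35.5 and 27.2 CPM with GFP and 13.3, 15.1 and 19.3 CPM with NeuroD1 (log2 fold change -0.92, SE 0.23). Notum, a secreted enzyme that strips the lipid from Wnt proteins and is also a Wnt-induced gene, averaged 6.12 ± 2.02 and 2.29 ± 0.966 CPM (log2 fold change -1.41, SE 0.42). For all 3 genes every NeuroD1 library was below every GFP library, as for Axin2 but not for Apcdd1. These 3 are among the 8 picked by smallest p, and Znrf3, another of the 8, was higher. Relatives on the list had overlapping groups. Tcf7, Tcf7l1 and Tcf7l2 had log2 fold changes of -0.10, -0.26 and -0.03, and Nkd2 of -0.25. Lef1 and Nkd1 had an edgeR unadjusted p of 0.00362 and 0.00378 and an adjusted p of 0.136, and Notum 0.00978 and 0.141. DESeq2 gave them adjusted p-values of 0.0131, 0.0189 and 0.0407. Lef1 and Notum, like Ctnnbip1, Dvl1 and Tle2 below, are annotated with overlapping exons on the opposite strand. So are Wnt5a, Wnt7b, Wnt11, Fzd5, Rspo3, Sfrp2, Tcf7l1, Adgra2 and Ctnnb1, with the same limit as for Fzd6.

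Daam2, a formin that binds Dishevelled and is abundant in glia, had 198.8, 372.3 and 213.0 CPM with GFP and 96.1, 116.5 and 130.8 CPM with NeuroD1 (log2 fold change -1.19, SE 0.29, edgeR adjusted p = 0.136). Its high GFP value was replicate 2, which also had the highest oligodendrocyte marker sum, and the part of these cells was not tested. Without that library the log2 fold change was -0.85. Ctnnbip1, which blocks the binding of beta-catenin to TCF, averaged 69.3 ± 6.42 and 41.3 ± 3.94 CPM (log2 fold change -0.75), and Tle2, a co-repressor of TCF targets, 61.4 ± 16.9 and 20.4 ± 10.5 CPM (-1.59). Dvl1, a Dishevelled scaffold that relays the Frizzled signal, averaged 144.0 ± 17.4 and 78.8 ± 24.1 CPM (-0.87). Znrf3, a ubiquitin ligase that removes Frizzled and Lrp6 from the surface and the target of R-spondins, was the exception with 15.3, 9.62 and 10.3 CPM in the GFP libraries and 21.8, 24.4 and 17.7 CPM in the NeuroD1 libraries (log2 fold change 0.85, SE 0.26, edgeR adjusted p = 0.141). None of these groups overlapped. Positive and negative regulators of the canonical branch were both among the lower genes: Lef1 and Dvl1 carry the signal, and Ctnnbip1, Nkd1, Notum and Tle2 limit it.

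**Figure D5:**
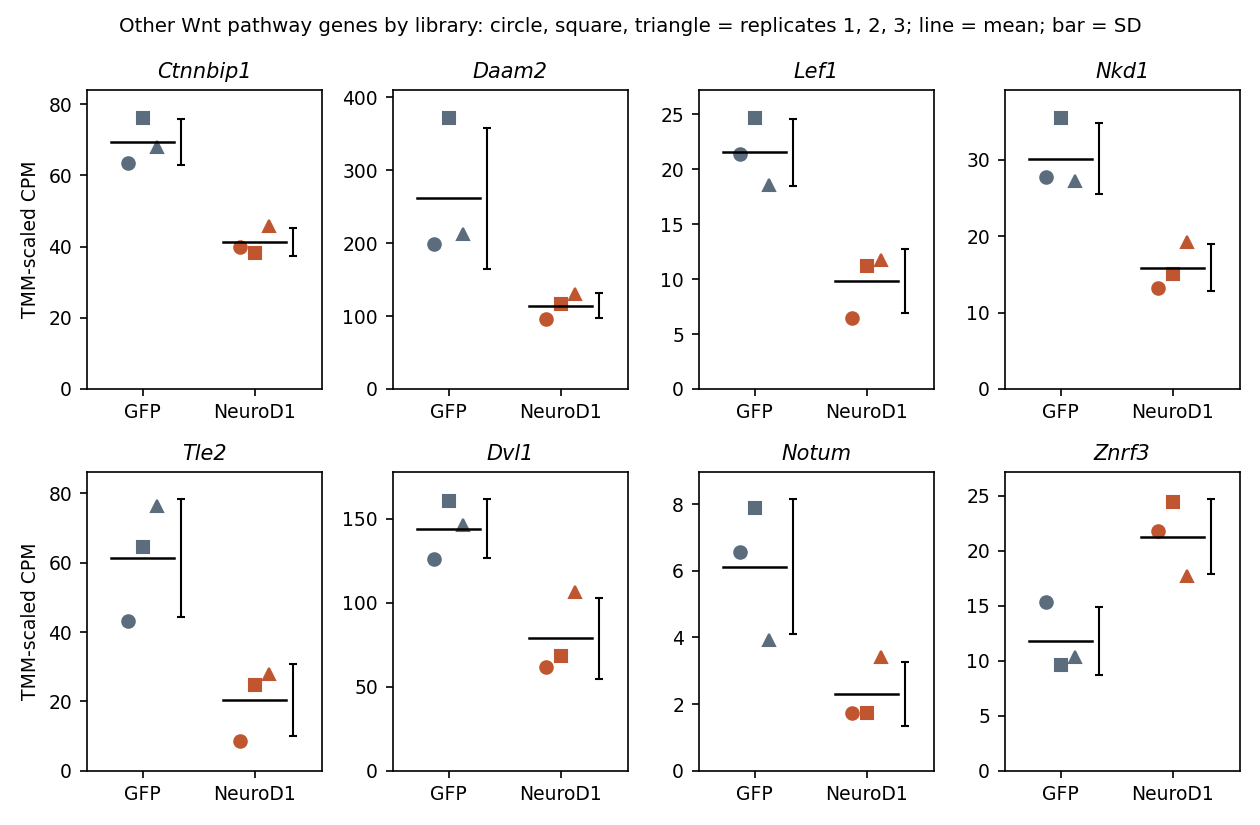
CPM by library (y axis, from 0) for the 8 other Wnt pathway genes with the smallest edgeR p, with replicates as separate symbols, a line at the mean and a bar for the SD. In 7 panels all 3 NeuroD1 points lie below all 3 GFP points, and in the Znrf3 panel they lie above.

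A few more genes around the ligands were chosen after their values were seen, and they do not cover every step. Wls, the carrier that brings every Wnt to the cell surface, had 65.9, 34.9 and 45.5 CPM with GFP and 98.1, 113.1 and 68.2 CPM with NeuroD1 (log2 fold change 0.93, SE 0.29, edgeR unadjusted p = 0.0118, adjusted p = 0.141). Porcn, also of the secretion step, averaged 59.6 ± 9.54 and 44.1 ± 20.3 CPM with overlapping groups (log2 fold change -0.43, SE 0.32, edgeR unadjusted p = 0.211). Reck, which with Adgra2 (also called Gpr124) makes endothelial cells respond to Wnt7a and Wnt7b, averaged 25.5 ± 7.41 and 14.4 ± 5.16 CPM with overlapping groups (log2 fold change -0.83, SE 0.34, edgeR unadjusted p = 0.0381). The unadjusted p of Reck was 0.0843 to 0.124 when GFP replicate 2, GFP replicate 3, NeuroD1 replicate 1 or NeuroD1 replicate 3 was left out. Adgra2 itself averaged 22.0 ± 4.21 and 19.9 ± 2.58 CPM. Ndp, the gene of Norrin, a ligand outside the Wnt family that binds Fzd4 and Lrp5, averaged 14.5 ± 0.753 and 7.80 ± 4.31 CPM, and its groups did not overlap (log2 fold change -0.88, SE 0.43, edgeR unadjusted p = 0.0739). For Ndp the log2 fold change was -0.49 without NeuroD1 replicate 2 and -1.21 (unadjusted p = 0.0375) without NeuroD1 replicate 1, and the limma-voom unadjusted p was 0.0436. Ctnnb1, the gene of beta-catenin, averaged 466.3 ± 101.5 and 628.9 ± 44.9 CPM, with overlapping groups (edgeR unadjusted p = 0.126).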

How the data were processed

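RNA sequencing of 6 cortex samples was deposited as 1 table of raw read counts per gene symbol, which the authors produced with featureCounts, per the file headers, against mm10 gene models. The submitters' processing notes list HISAT2 2.0.1, DESeq2 1.16.1 and GRCm38 but not what each did. Strand setting and read filters: not given in the sources used here. Columns were matched to samples by the description in the labels, and 0 columns were left unused.

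Counts were fitted over all genes with edgeR 4.0.16 in R 4.3.3 (quasi-likelihood F-test, TMM scaling, filterByExpr with a minimum count of 10 and a minimum total of 15, treatment as the only term), which left 14852 genes. Benjamini-Hochberg adjustment covered all of these, with a threshold of 0.05. Standard errors come from the F statistic. Pairs of libraries within a group differed by a chi-square of 33.8 to 126.3 per gene, and pairs across the groups by 29.1 to 165.0. All were far above sampling noise, so no library was a copy of another. The closest pair was GFP replicate 1 with NeuroD1 replicate 3. The scripts were tested on simulated data. Gene positions and lengths came from GENCODE M21 (GRCm38) and promoters from RefSeq (GRCm38.p6).

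The genes and lists were chosen with earlier results of these data known. Shown library by library were Neurod1, the genes of each role with an unadjusted p under 0.05 and the 3 with the highest mean CPM, and the 8 pathway genes with the smallest p. Other genes are summarised, or marked as picked with their values in view. Alternatives were DESeq2 1.42.0, limma-voom (limma 3.58.1), other scalings and filters, a replicate block and each library left out.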

Additional observations from a re-analysis of the deposited data

How the results depend on the processing

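The number of genes past the adjusted threshold over the whole table was 0 with edgeR, 1355 with DESeq2, 479 with a replicate block and 1 without NeuroD1 replicate 2. Among the Wnt genes it was 0 in every edgeR and limma-voom fit that was run and 1 of 39 with DESeq2. Among the pathway genes it was 11 of 65 with DESeq2, where 1355 of 15703 genes passed (8.63%). With a replicate block it was 3 of 63 pathway genes, where 479 of 14852 genes passed. At an unadjusted p under 0.05, 4 of 37 Wnt genes were higher in the main fit (10.8%, all genes 12.5%). It was 7 of 45 with DESeq2 (15.6%, all genes 11.6%) and 7 of 37 with a replicate block (18.9%, all genes 17.8%). With a library left out, the higher count was 1 without GFP replicate 2 (2.70%, all genes 6.53%) to 7 without GFP replicate 1 (18.9%, all genes 14.2%). The lower count, 3 in the main fit (8.11%, all genes 11.5%), was 1 without GFP replicate 2 (2.70%, all genes 5.40%). It was 6 without NeuroD1 replicate 3 (16.2%, all genes 13.6%). The median log2 fold change lay between -0.0026 (without GFP replicate 2) and 0.32 (without GFP replicate 1). Higher pathway genes numbered 2 (without GFP replicate 3, all genes 6.13%) to 14 (without GFP replicate 1, all genes 14.2%), against 8 (all genes 12.5%). They numbered 3 without GFP replicate 2 (all genes 6.53%) and 4 without NeuroD1 replicate 1 (all genes 7.79%). The median of all genes lay between -0.059 and 0.027 under the scalings and left-out libraries.

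For 31 genes the log2 fold change was followed under every alternative: 370 values kept direction and side of the adjusted threshold, 14 passed it, and 18 changed sign. The other 18 tested Wnt genes were compared only with a library left out, and 8 of them changed sign in at least 1 such fit (Fzd2, Fzd4, Fzd8, Fzd9, Wnt2, Wnt5b, Wnt6 and Wnt9a). Dkk3 was 0.019 with DESeq2, 0.013 with limma-voom, 0.0059 with RLE size factors, 0.019 with no filter, 0.012 with a replicate block, 0.29 when GFP replicate 1 and 0.20 when NeuroD1 replicate 2 was left out, and its lowest value with a library left out was -0.17. Sfrp1 was -0.060 with limma-voom, -0.073 with upper quartile scaling, -0.018 with a minimum count of 50, -0.040 with a replicate block, -0.12 when GFP replicate 2, -0.18 when GFP replicate 3 and -0.48 when NeuroD1 replicate 2 was left out, and at most 0.34. Wnt4 was 0.14 when GFP replicate 3 was left out, 0.042 for NeuroD1 replicate 1 and 0.11 for NeuroD1 replicate 2, with a lowest value of -0.30. Wnt7b ranged from -0.55 to 0.16, the latter without NeuroD1 replicate 2. The cause was not tested. The labels do not say that same-numbered libraries are pairs, so the main fit had no block. Deviations of same-numbered libraries from their group means correlated at 0.56 and 0.39 in pairs 1 and 2 and at 0.033 in pair 3. With 3 libraries per group these correlations depend on each other, and they cannot decide whether the libraries were paired. The block raised the Wnt genes at an unadjusted p under 0.05 from 7 to 11, while the background rose from 24.0% to 33.8%. The 4 added were Fzd3, Fzd5, Wnt16 and Wnt7a. In the edgeR fit with the block the unadjusted p was 0.0036 for Fzd3, 0.00334 for Reck and 0.0375 for Ndp. At these depths genes under about 1 CPM rest on few counts.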
